A study of Drosophila melanogaster with 24 samples.

Results

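Transcript levels of enzymes of glycolysis and glycerol phosphate synthesis were followed in adult whole females of Drosophila melanogaster from stress-selected lines. The list held 10 gene symbols, Hex-A, Pgi, Pfk, Tpi, Gapdh1, Gapdh2, Pgk, Eno, PyK and Gpdh1, and a gene was a member when a probe set of the Affymetrix array named it and no other gene. This gave 7 members with 1 probe set each, of 10843 genes that the array's annotation names alone. Tpi had only a probe set that it shares with CG1607, so its values are given as those of a shared probe set. Gapdh2 and PyK had no probe set under these names and were not analysed here. All 7 members lay far above the filter on low values (a log2 value above 4 on at least 3 arrays) on every array, so none was kept through a single group. The annotation, and not a measured value, chose the members.

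The series held 24 arrays, 1 per line, in 8 groups of 3 lines: heat selected, constant 30, cold selected, longevity selected, knock_down selected (written knock-down here), starvation selected and desiccation selected lines, and unselected control lines. The regimes are named for resistance to heat, cold, knock-down, starvation or desiccation or for long life, and the constant 30 flies are described as held at 30 degrees. The sources used here do not give the kind of knock-down, the strain, the age of the females or the number of generations. RNA came from 10 homogenised females per vial, so each value is a mean over all tissues of pooled flies. In such whole bodies fewer cells of a type and less RNA per cell cannot be told apart. The lines are called biological replicates, and the p-values of comparisons between groups measure the spread between them.

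In glycolysis, glucose is phosphorylated by hexokinase, rearranged by glucose-6-phosphate isomerase, phosphorylated again by phosphofructokinase and split into triose phosphates, which later steps turn into pyruvate with a gain of ATP. Glycerol-3-phosphate dehydrogenase draws on the same triose phosphates, and its product carries reducing power to the mitochondria or becomes the backbone of fats. Insect flight muscle relies on both routes, and the fat body uses glycerol phosphate for triglyceride synthesis.

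Across the 24 arrays the levels were high, and the values of a member spanned from 0.25 (Pgi) to 0.70 (Pfk) on the log2 scale. The log2 level lay between 9.04 and 9.52 for Hex-A (hexokinase), 10.81 and 11.06 for Pgi (glucose-6-phosphate isomerase) and 9.51 and 10.20 for Pfk (phosphofructokinase). It lay between 12.22 and 12.85 for Gapdh1 (glyceraldehyde-3-phosphate dehydrogenase), 10.23 and 10.84 for Pgk (phosphoglycerate kinase) and 11.89 and 12.33 for Eno (enolase). Gpdh1, the glycerol-3-phosphate dehydrogenase, lay between 10.67 and 11.21. These are probe set values without correction for length, so they do not rank the genes against each other. The group means of a member spanned at most 0.45 on the log2 scale (Pfk, 1.37-fold) and 0.17 for Pgi and Eno. For none of the 7 members were any 2 groups next to each other in the order of means apart in all their values (0 of 7 neighbouring pairs for each member).

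The order of the group means differed between the enzymes. Pfk, Gapdh1, Pgk and Eno were highest in heat selected females and second highest in cold selected females. Without cold selected line 3 the cold selected mean lay below control for Pfk (9.70, against 9.77), Pgk (10.42, against 10.48) and Eno (12.110, against 12.118) and above it for Gapdh1 (12.55, against 12.47). Their lowest means lay in starvation selected females for Pfk (9.56 ± 0.06, SD, n = 3), in longevity selected females for Gapdh1 (12.28 ± 0.08) and Eno (12.02 ± 0.12), and in constant 30 females for Pgk (10.32 ± 0.11). Gpdh1 ran the other way, lowest in heat selected females (10.79 ± 0.17) and next lowest in cold selected females (10.90 ± 0.15), with its highest mean in starvation selected females (11.12 ± 0.04). Hex-A was also lowest in heat selected females, at 9.22 ± 0.15, and Pgi was lowest in cold selected females (10.85 ± 0.02) and highest in control (11.02 ± 0.01).

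**Figure D1:**
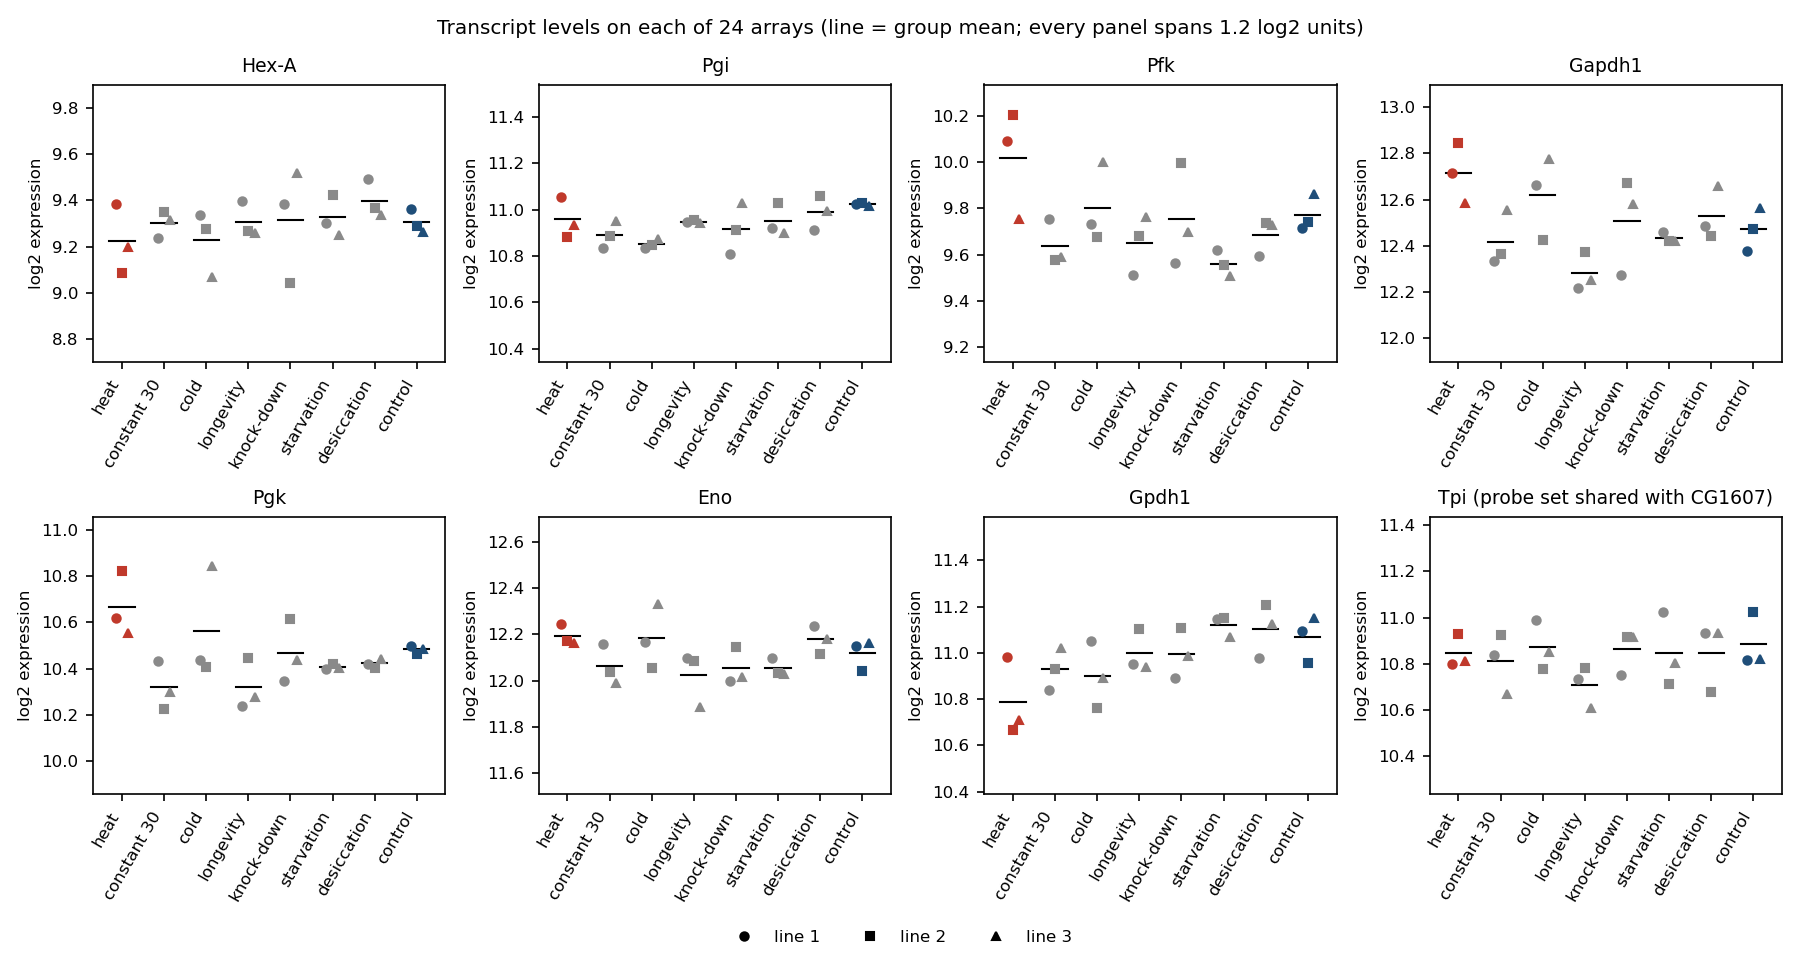
Log2 expression of the 7 member genes and of the probe set shared by Tpi and CG1607 (y axis) in 8 groups (x axis), with 1 symbol per line and a bar at the group mean. Heat selected lines (red) include the highest Pfk and Gapdh1 values (10.20 and 12.85) and the lowest Gpdh1 value (10.67). Groups next to each other in the order of means overlap in every panel, but some other groups do not. For Pgi, cold selected lines (10.84 to 10.87) lie below control lines (11.02 to 11.03).

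The first question was whether any regime differed from control, with a linear model fitted to all 9023 tested probe sets by limma and p-values adjusted over all of them. No member was called at an adjusted p under 0.05 in any of the 7 comparisons. Of the 49 log2 changes, 5 had an unadjusted p under 0.05 and 33 lay within 0.1 of 0, and they ran from -0.28 to 0.24. Over all tested probe sets, 2.84% were called in heat selected females, 0.155% in knock-down selected and 0.0776% in desiccation selected females, and 0% in each of the other 4 regimes. Of those 5 changes 3 lay in heat selected females (Gpdh1, Gapdh1 and Pfk), where 20.5% of all probe sets had such a p, 1 in constant 30 (Pgi, against 6.98% of probe sets) and 1 in cold selected females (Pgi, against 7.9%). The F test for any difference between the 8 groups called 0.0554% of probe sets and no member. The members with an unadjusted p under 0.05 there were Gapdh1 (adjusted p = 0.242), Gpdh1 (adjusted p = 0.278), Pfk and Pgk (adjusted p = 0.294 for each), and 15.4% of all probe sets passed that unadjusted level.

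In heat selected females against control, 3 members lay below 0 and 4 above it, and none was called. For Hex-A the heat selected lines had 9.38, 9.09 and 9.20, against 9.36, 9.29 and 9.26 in control lines, a log2 change of -0.08 ± 0.10 (SE). Pgi was at 11.06, 10.88 and 10.93 in heat selected lines and at 11.03, 11.03 and 11.02 in control lines, a change of -0.07 ± 0.06. The values of the heat selected lines spanned those of control for Hex-A and for Pgi. Pfk, which sets the pace of glycolysis in many tissues, was at 10.09, 10.20 and 9.75 in heat selected lines, against 9.72, 9.74 and 9.86 in control lines. Its change was 0.24 ± 0.12 (adjusted p = 0.243 by limma), with lines 1 and 2 above every control line and line 3 inside the control range.

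For Gapdh1, Pgk and Eno, further down the pathway, the heat selected values lay just above those of control. The shared probe set of Tpi and CG1607 overlapped control, with a change of -0.04 ± 0.10 (adjusted p = 0.856 by limma). Gapdh1 was at 12.71, 12.85 and 12.58 in heat selected lines, against 12.38, 12.47 and 12.56 in control lines, a change of 0.24 ± 0.10 (adjusted p = 0.188). Pgk was at 10.62, 10.82 and 10.56 in heat selected lines, against 10.50, 10.47 and 10.49 in control lines, a change of 0.18 ± 0.10 (adjusted p = 0.312). Eno was at 12.24, 12.17 and 12.16 in heat selected lines, against 12.15, 12.04 and 12.16 in control lines, a change of 0.07 ± 0.07. All heat selected values lay above all control values for these 3 members, as for 12% of all tested probe sets, although the nearest lines of the groups were close together for Gapdh1 and Eno. Gpdh1 was at 10.98, 10.67 and 10.71 in heat selected lines, against 11.09, 10.95 and 11.15 in control lines, a change of -0.28 ± 0.09 (adjusted p = 0.0945). Lines 2 and 3 lay below every control line, while line 1 lay above control line 2. With each array centred on its median Gpdh1 was called here, at -0.35 (adjusted p = 0.0386). The 95% intervals of the 7 changes reached from -0.47 (Gpdh1) to 0.49 (Pfk).

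**Figure D2:**
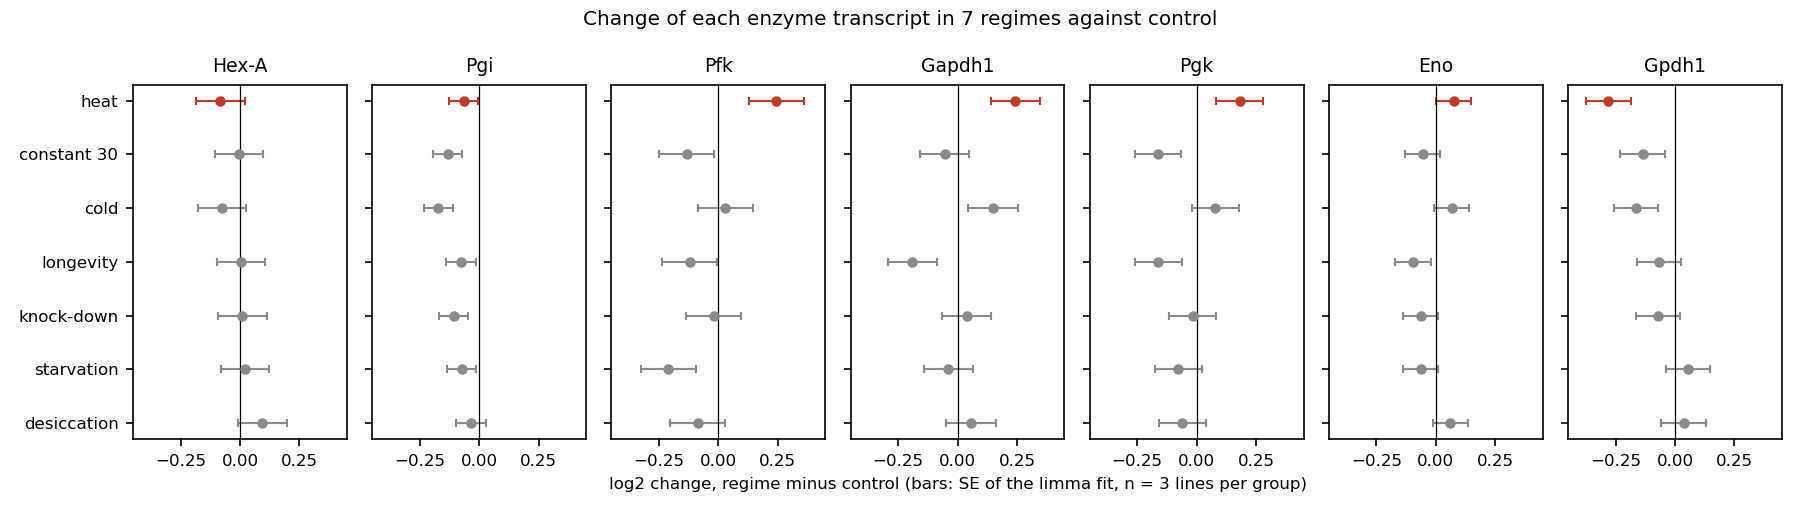
Log2 change of each member (panels, x axis) in the 7 regimes against control (rows), with bars of 1 standard error of the limma fit and n = 3 lines per group. No change passed an adjusted p of 0.05, and the changes ran from -0.28 for Gpdh1 to 0.24 for Pfk, both in heat selected females (red).

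In the other 6 regimes no change against control was called. The 7 comparisons share the 3 control arrays, so their values are not independent of each other. All 7 members lay below 0 in constant 30 females, where 58.3% of all tested probe sets did, with a median of -0.13 over the members and -0.02 over all probe sets. The largest were Pgk (-0.16 ± 0.10), Gpdh1 (-0.14 ± 0.09), Pgi (-0.13 ± 0.06) and Pfk (-0.13 ± 0.12), with adjusted p-values of 0.738, 0.771, 0.710 and 0.817 by limma. Pgi was at 10.83, 10.89 and 10.95 in constant 30 lines, all below the control lines, and Pgk at 10.44, 10.23 and 10.30, also below them. In that comparison 9.36% of all probe sets lay below all control values.

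In cold selected females the members lay on both sides of 0. Pgi was at 10.84, 10.85 and 10.87 in cold selected lines, below every control line as for 7.29% of all probe sets, with a change of -0.17 ± 0.06 (adjusted p = 0.535, unadjusted p = 0.0122). Gapdh1 was at 12.66, 12.43 and 12.77 in cold selected lines (0.15 ± 0.10, adjusted p = 0.761) and Gpdh1 at 11.05, 10.76 and 10.89 (-0.17 ± 0.09, adjusted p = 0.673), both overlapping control. The other 4 members changed by between -0.08 (Hex-A) and 0.08 (Pgk). Cold selected line 3 held the highest Pgk value of all 24 arrays, 10.84, and the highest Eno value, 12.33.

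In longevity selected females 6 of 7 members lay below 0, where 59% of all tested probe sets did. Gapdh1 was at 12.22, 12.37 and 12.25 in longevity selected lines, just below every control line (-0.19 ± 0.10, adjusted p = 0.692). Pgk changed by -0.16 ± 0.10 and Pfk by -0.12 ± 0.12, with adjusted p-values of 0.726 and 0.818. Longevity selected values lay below all control values for Pgi, Gapdh1 and Pgk, as they did for 9.54% of all probe sets. They also did for the shared probe set of Tpi and CG1607, with a change of -0.18 ± 0.10 (adjusted p = 0.679 by limma).

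Starvation and desiccation selected females, whose regimes bear on stored energy and water, showed no called member against control. Pfk was at 9.62, 9.56 and 9.51 in starvation selected lines, below every control line, a change of -0.21 ± 0.12 (adjusted p = 0.582). Pgk also lay below every control line in starvation selected females, where 11.8% of all probe sets did, and in desiccation selected females, where 12.9% did. The 6 members other than Pfk changed by between -0.08 (Pgk) and 0.06 (Gpdh1) in starvation selected females. In desiccation selected females the 7 changes ran from -0.09 (Pfk) to 0.09 (Hex-A), and in knock-down selected females from -0.11 (Pgi) to 0.04 (Gapdh1). Starvation selected against desiccation selected females, a comparison without the control arrays, gave changes from -0.13 (Eno) to 0.02 (Gpdh1). No member was called there, and 0% of all probe sets were, while 2.32% had an unadjusted p under 0.05. The 95% intervals of those 7 differences reached from -0.37 (Pfk) to 0.21 (Gpdh1). The mean of the 7 regimes against control called no member and 0% of probe sets (10.9% at an unadjusted p under 0.05), with member changes from -0.09 (Pgi) to 0.03 (Gapdh1).

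Heat selected females were next set against the mean of the 6 other regimes, a difference of means in which control does not enter, although all 24 arrays set the spread behind the p-values. Pfk, Gapdh1 and Pgk rose and Gpdh1 fell, so that 4 of the 7 members were called, 3 higher and 1 lower. Over all tested probe sets 11.1% were called, 7% higher and 4.06% lower. The median over the 7 members was 0.10 and over all probe sets 0.04. Hex-A, Pgi and Eno were not called. In a fit of the compared groups alone, without the control arrays, only Pfk was called, and the changes were the same (adjusted p = 0.0588 for Gapdh1, 0.0558 for Pgk and 0.0583 for Gpdh1).

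Pfk rose most, by 0.33 ± 0.09 (SE, 1.26-fold, adjusted p = 0.0273 by limma). Its heat selected lines had 10.09, 10.20 and 9.75, against a lowest, median and highest value of 9.51, 9.68 and 10.00 over the 18 arrays of the other regimes. Lines 1 and 2 lay above all 18 and line 3 below 3 of them. Gapdh1 rose by 0.25 ± 0.08 (1.19-fold, adjusted p = 0.0480), with 12.71, 12.85 and 12.58 in heat selected lines, against 12.22, 12.43 and 12.77 as the lowest, median and highest of the other regimes. Of the other arrays 4 lay above heat selected line 3. Pgk rose by 0.25 ± 0.08 (1.19-fold, adjusted p = 0.0407), with 10.62, 10.82 and 10.56 in heat selected lines, against 10.23, 10.41 and 10.84 as the lowest, median and highest of the others. Cold selected line 3 was the 1 array above all heat selected lines for Pgk.

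Gpdh1 fell by 0.22 ± 0.07 on the log2 scale (1.17-fold), with an adjusted p of 0.049995, just under the threshold of 0.05. The heat selected lines had 10.98, 10.67 and 10.71, against 10.76, 11.004 and 11.21 as the lowest, median and highest of the 18 other arrays. Lines 2 and 3 lay below all 18, and line 1 lay above 8 of them. Hex-A changed by -0.09 ± 0.08 with a 95% interval from -0.25 to 0.07, Pgi by 0.03 ± 0.05 with an interval from -0.07 to 0.13, and Eno by 0.10 ± 0.06 with an interval from -0.02 to 0.22. The shared probe set of Tpi and CG1607 changed by 0.02 ± 0.07 (adjusted p = 0.856).

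Most of these calls lay near the threshold. Without heat selected replicate 2 no member was called (998 calls over all probe sets became 2) and Pfk was at 0.24, Gapdh1 at 0.18, Pgk at 0.17 and Gpdh1 at -0.16. Without heat selected replicate 1 Gpdh1 alone was called, while Pfk was at 0.30, Gapdh1 at 0.25 and Pgk at 0.27, and leaving out any other array left between 1 and 4 members called. Pfk kept its call without any single array other than heat selected replicates 1 and 2, with changes of 0.32 to 0.35 without any 1 of the 18 arrays of the other regimes. Gapdh1 lost its call without any 1 of 12 of those 18 arrays, Pgk of 11 and Gpdh1 of 13, at changes of 0.23 to 0.26, 0.24 to 0.27 and -0.23 to -0.21 over the 18. The actin, eIF-4a and GAPDH controls have probe sets at both transcript ends. Their mean 3' signal minus their mean 5' signal (log2) rises with RNA degradation, so a small value stands for less degraded RNA. That difference was smallest on heat selected replicate 2, at 1.34, against 1.62 and 1.68 on replicates 1 and 3. It was 1.50 to 1.93 in the 6 other regimes and 1.69 to 1.82 in control. With that difference as a covariate no member was called in this comparison, Pfk was at 0.14, Gapdh1 at 0.15, Pgk at 0.12 and Gpdh1 at -0.21 (smallest adjusted p = 0.460). Heat selected females had the lowest group mean of that difference, 1.55, against 1.66 to 1.85 in the other groups. The fit therefore cannot fully tell the covariate apart from the regime. The covariate also includes the GAPDH controls, which may match Gapdh1. The part of RNA quality in these changes was not tested beyond the fit with the covariate.

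Other genes of sugar metabolism gave the surroundings of the members. Of 32 listed genes in 5 groups, 23 had a probe set of their own and 20 were tested, and in the 7 comparisons against control none was called (1 to 4 of 20 had an unadjusted p under 0.05 in each). In heat selected females against the 6 other regimes 3 of the 20 were called, 2 higher and 1 lower, beside 11.1% called over all probe sets (7% higher and 4.06% lower), so that 3 of 20 was near that share. The median over the 20 was 0.05. Both that rose are glycolytic. Ald1, the aldolase that splits fructose bisphosphate, rose by 0.45 ± 0.11 (adjusted p = 0.0223), with 12.37, 12.60 and 12.32 in heat selected lines. Pglym78, a phosphoglycerate mutase, rose by 0.34 ± 0.10 (adjusted p = 0.0309), with 11.63, 11.94 and 11.67. Gk2, a glycerol kinase, which makes glycerol phosphate from glycerol, fell by 0.24 ± 0.08 (adjusted p = 0.0442), with 7.52, 7.49 and 7.61. Without heat selected replicate 2 none of the 3 was called, with Ald1 at 0.36, Pglym78 at 0.24 and Gk2 at -0.22, and the same held with the RNA quality covariate (0.31, 0.21 and -0.17). Pglym78 also lost its call after quantile normalization (adjusted p = 0.0522) and median centring (adjusted p = 0.0565). Gk2 lost it with array weights (adjusted p = 0.0758), in a fit of the compared groups alone (0.0539), without heat selected replicate 1 (0.112) or 3 (0.0527), and without any 1 of 10 of the 18 arrays of the other regimes. The 6 tested genes of other glycolysis ran from 0.06 to 0.45 in this comparison. Their median was 0.14, beside 0.04 over all tested probe sets.

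Apart from Gk2, the remaining groups held no call in that comparison. The medians were 0.02 for 4 genes of glycerol and glycerol phosphate, Gk2 included, -0.10 for 4 genes of gluconeogenesis, 0.09 for 3 genes of the pentose phosphate route and -0.01 for 3 genes of pyruvate use. Against control, Men (malic enzyme) had the smallest adjusted p of the 20 genes, 0.0606, in heat selected females, with 11.04, 10.81 and 11.26, against 11.35, 11.56 and 11.45 in control lines (-0.42 ± 0.12). All heat selected values of Men lay below all control values, as for 11.4% of all probe sets, and it was called without heat selected replicate 3 (-0.53, adjusted p = 0.0222) and with each array centred on its median (-0.49, adjusted p = 0.0418). Men has 2 tested probe sets, and the other changed by -0.23 (adjusted p = 0.213). Of the genes with the lowest p in their group, Ald1 was at 0.44 and Gk2 at -0.23 in heat selected females, Pfrx at -0.22 in desiccation selected, Hex-C at 0.28 in longevity selected and Gpdh3 at -0.17 in knock-down selected females, with none called. Pepck1, a phosphoenolpyruvate carboxykinase of gluconeogenesis, was at 11.64, 11.77 and 11.81 in knock-down selected lines, against 10.89, 11.21 and 11.51 in control lines (0.53 ± 0.17, adjusted p = 0.214), and was called without control replicate 3 (0.68, adjusted p = 0.0453). Rpe, an epimerase of the pentose phosphate route, was at 9.95, 9.97 and 9.82 in constant 30 lines, against 10.16, 10.10 and 10.20 in control lines (-0.24 ± 0.07, adjusted p = 0.399). The others named for their group were Gpo2 (-0.12, starvation selected), fbp (-0.27, cold selected), Pepck2 (-0.63, constant 30), Taldo (-0.21, cold selected), Rpi (-0.14, constant 30), Mpc1 (0.08, cold selected) and Pdk (0.13, desiccation selected), none of them called.

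**Figure D3:**
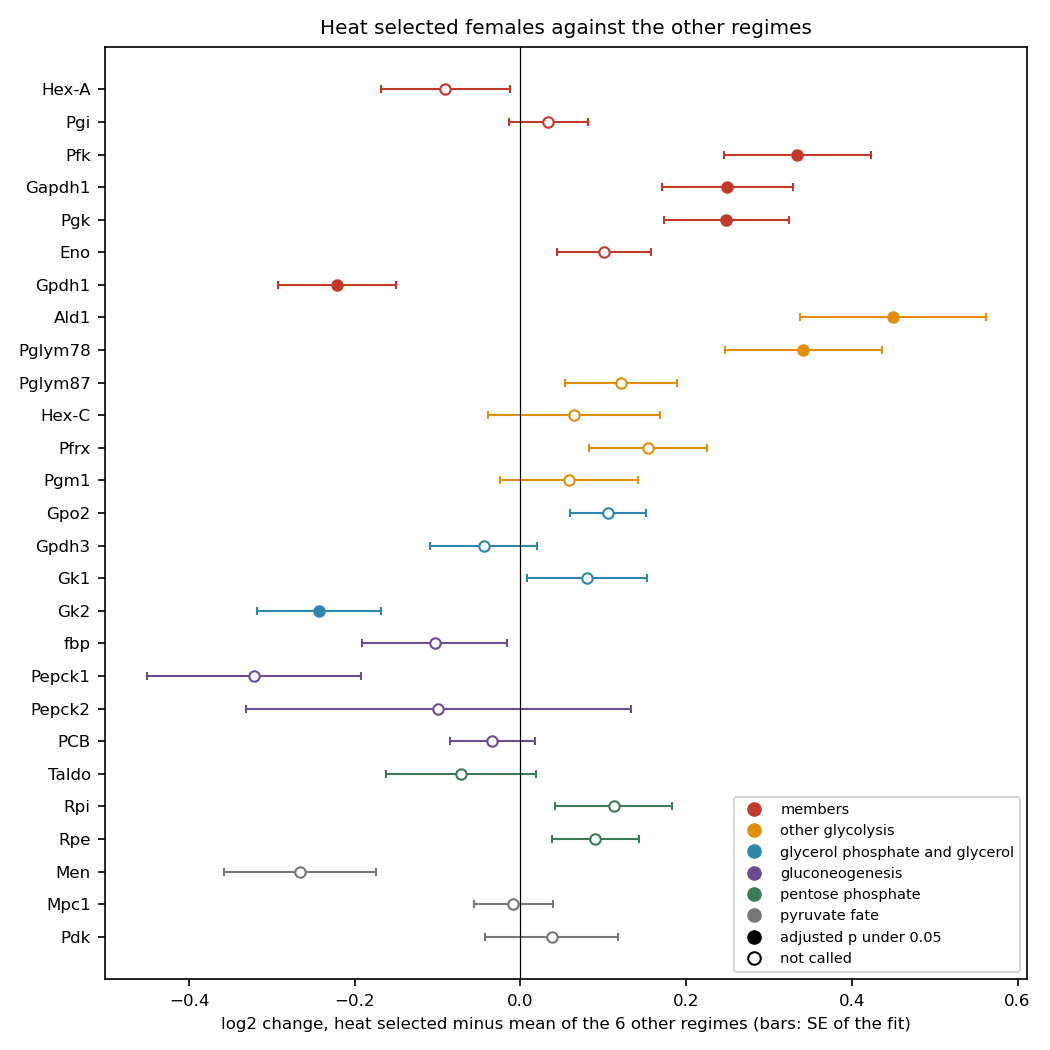
Log2 change in heat selected females minus the mean of the 6 other regimes (x axis) for the 7 members and the 20 other tested genes of sugar metabolism (rows, coloured by group), with bars of 1 standard error and filled symbols at an adjusted p under 0.05. Pfk, Gapdh1, Pgk, Ald1 and Pglym78 lie between 0.25 and 0.45, and Gpdh1 and Gk2 at -0.22 and -0.24.

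Gapdh1 and Gpdh1 use the triose phosphates in competing directions, and the difference of their log2 values was followed on each array relative to its mean in control, as a description. It was 0.33, 0.77 and 0.47 in heat selected lines and 0.21, 0.26 and 0.48 in cold selected lines, against -0.12, 0.11 and 0.01 in control lines. All 6 of these values lay above every control value, but no other pair of genes was followed, so no share stands beside that count. Gapdh1 had its highest group means and Gpdh1 its lowest in heat and cold selected females. A high difference there follows from those levels. It was 0.09, 0.03 and 0.13 in constant 30 lines, -0.02, 0.16 and 0.19 in knock-down selected lines and 0.10, -0.17 and 0.13 in desiccation selected lines, each group having at least 1 line above every control line. It was -0.14, -0.14 and -0.09 in longevity selected lines and -0.09, -0.13 and -0.05 in starvation selected lines, overlapping control in both. Such a difference within an array shows only that the pair changed unequally.

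**Figure D4:**
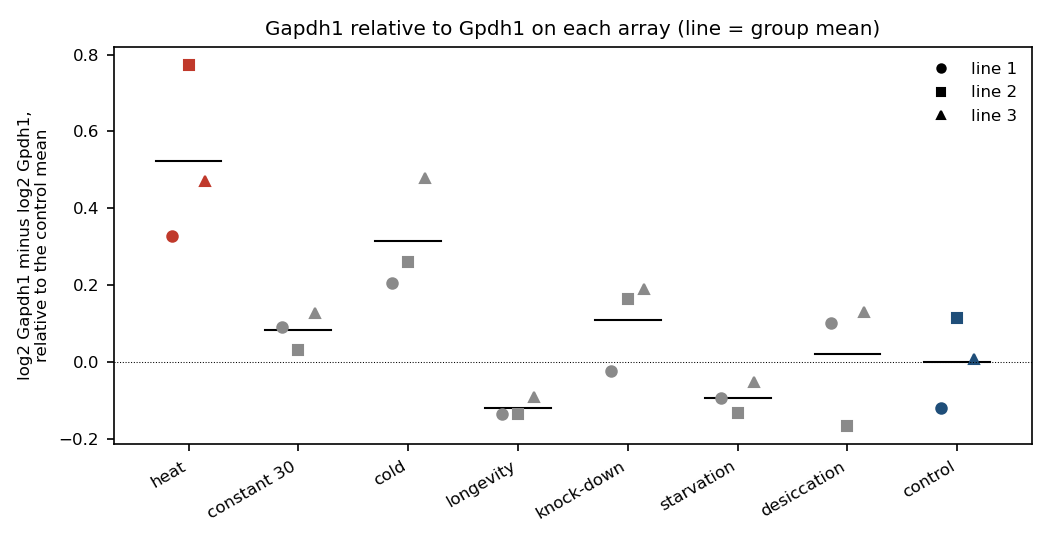
Log2 Gapdh1 minus log2 Gpdh1 on each array relative to the control mean (y axis) by group (x axis), with 1 symbol per line and a bar at the group mean. Heat selected lines lie at 0.33 to 0.77 and cold selected lines at 0.21 to 0.48, against -0.12 to 0.11 in control.

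The members did not vary as 1 block across lines. Pfk, Gapdh1, Pgk and Eno went together over the 24 arrays, with Pearson r between 0.54 (Pfk with Eno) and 0.84 (Pfk with Pgk), and between 0.38 and 0.78 when each value was taken as its deviation from the group mean. Hex-A ran against these 4, with r between -0.62 and -0.26, and also within groups (-0.67 to -0.27). Pgi had r near 0 with them (-0.01 to 0.08). Gpdh1 had r of -0.28 to -0.06 with them over all arrays but of 0.09 to 0.45 within groups, and its highest r was with Pgi (0.52, and 0.58 within groups). These r describe 24 values that share their arrays.

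Among 8061 other single-gene probe sets, the genes whose levels over the 24 arrays were most like each member differed from member to member. For Gapdh1 they were ND-51 and ND-SGDH, subunits of mitochondrial complex I (r = 0.95 for each). For Pgk they were CG7182 (0.90) and ATPsyngamma, a subunit of the ATP synthase (0.89). For Pfk they were Mob2 (0.91) and Plp (0.89), and for Eno they were Glyp (0.73), the glycogen phosphorylase, and Pglym78 (0.72). The highest r were lower for Gpdh1, with Adss and egl at 0.68 each, and for Pgi, with eco at 0.63 and Uck at 0.62. For Hex-A they were d4 and pck at 0.84 each.

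Markers of tissues were followed on the same arrays. The 8 tested of 10 muscle genes had a mean log2 level of 9.60 to 10.49 in heat selected lines (10.49, 10.35 and 9.60 on replicates 1, 2 and 3). It was 8.65 to 9.98 in the 6 other regimes and 8.75 to 9.48 in control. In heat selected females against the other regimes 4 of the 8 were called higher, beside 7% of all tested probe sets. Over the 24 arrays the muscle level was related to Gapdh1 with r = 0.85 and Spearman rho = 0.80 (permutation p = 1e-05 and 3e-05, the first the smallest that 100000 permutations can give, adjusted p = 7e-05 and 0.00021 over 7 members). Within groups that r was 0.81, and without heat selected replicates 1 and 2, the arrays farthest from the median muscle level, it was 0.80. Pfk had r = 0.69 and rho = 0.47 (permutation p = 0.00023 and 0.0207, adjusted p = 0.000805 and 0.0483), with r = 0.45 without those 2 arrays and 0.66 within groups. Pgk had r = 0.64 and rho = 0.48 (permutation p = 0.00083 and 0.0186, adjusted p = 0.00194 and 0.0483), with r = 0.49 without them and 0.44 within groups. Eno (r = 0.40, rho = 0.42), Hex-A (-0.34 and -0.21), Pgi (0.21 and 0.14) and Gpdh1 (-0.03 and 0.16) did not pass (permutation p = 0.0494, 0.103, 0.323 and 0.905 for r and 0.0401, 0.331, 0.524 and 0.465 for rho, adjusted p = 0.0864, 0.144, 0.376 and 0.905 for r and 0.0701, 0.463, 0.524 and 0.524 for rho). For Gpdh1 the r was 0.59 within groups and 0.27 without heat selected replicates 1 and 2. The permutations shuffled all 24 arrays without regard to group. Their p-values therefore also take in differences between groups, and do not measure the relation within groups. These relations were chosen after the values were seen, and the part of muscle RNA in the changes of the members was not tested.

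**Figure D5:**
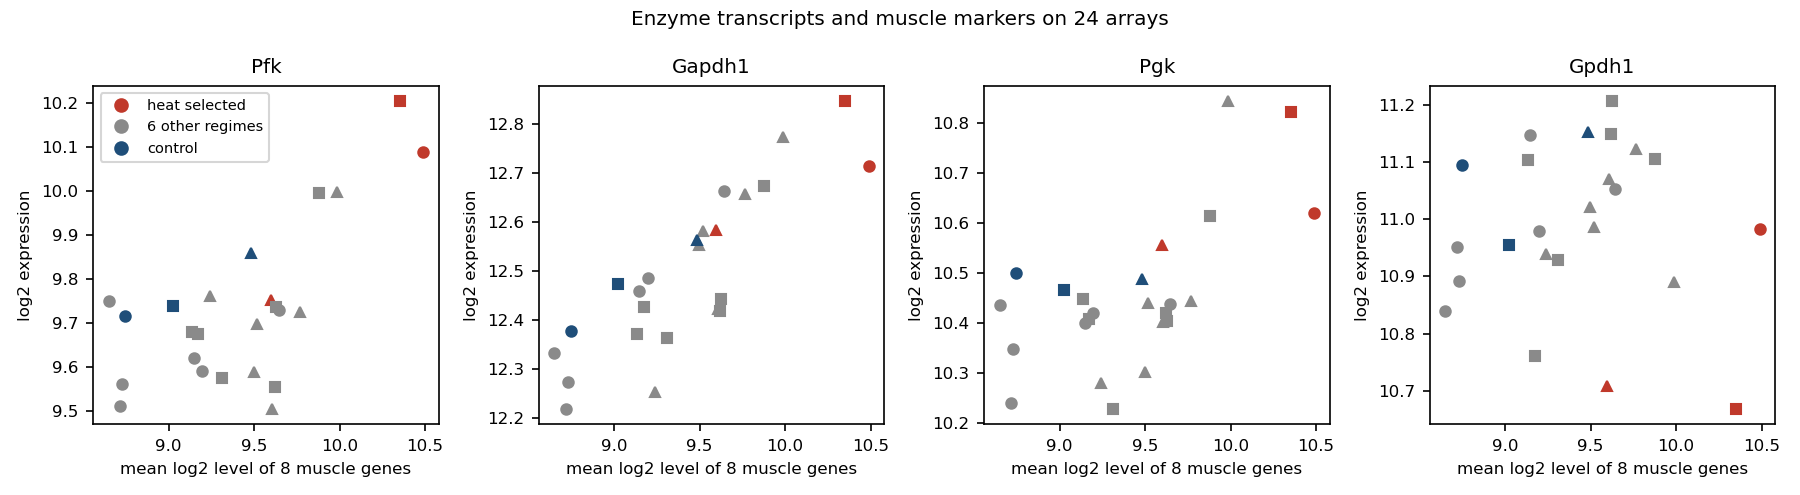
Log2 expression of Pfk, Gapdh1, Pgk and Gpdh1 (y axes) against the mean log2 level of 8 muscle genes (x axis) on 24 arrays, coloured by heat selected, the 6 other regimes and control, with circles, squares and triangles for lines 1, 2 and 3. Gapdh1 follows the muscle level (r = 0.85), while heat selected lines 2 and 3 hold the lowest Gpdh1 values (10.67 and 10.71) at muscle levels of 10.35 and 9.60.

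Other tissue lists were followed in the same way, beside 7% of all probe sets called higher and 4.06% called lower in heat selected females against the 6 other regimes. The 5 tested of 6 fat body genes had a mean log2 level of 7.90 to 8.49 in heat selected lines, 8.52 to 9.65 in the 6 other regimes and 9.24 to 9.52 in control, with 3 of 5 called lower against the other regimes. Most of that difference in the mean came from Lsp2, a larval serum protein, at -2.46, with srp at -0.98, apolpp at -0.52, Apoltp at -0.14 and FASN1 at -0.13. The 9 tested of 10 follicle cell and eggshell genes stood at 11.18 to 12.21 in heat selected lines, 11.88 to 12.87 in the other regimes and 12.35 to 12.69 in control, with 4 of 9 called lower. The 7 tested of 8 germ line genes stood at 10.30 to 10.45 in heat selected lines, 10.34 to 10.61 in the other regimes and 10.49 to 10.59 in control (1 called lower). The eye list (5 of 8 tested) stood at 7.84 to 8.35 in heat selected lines, 7.66 to 8.23 in the other regimes and 7.26 to 7.92 in control (1 called higher). The neuronal list (4 of 6 tested) stood at 5.59 to 5.83 in heat selected lines, 5.27 to 5.68 in the other regimes and 5.13 to 5.48 in control (1 called higher). The label of female flies matched the markers: 7 of 8 testis and male accessory gland genes stayed at or below 3.91 on every array and the other, Acp26Aa, lay between 3.90 and 4.42 and was called higher in heat selected females against the 6 other regimes (0.23, adjusted p = 0.0324), while Vm26Aa, Vm34Ca and Cp36 of the eggshell lay between 10.68 and 14.95. The part of these tissues in the changes of the members was not tested.

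The array also carries 3 control probe sets named for GAPDH, placed at the 3' end, the middle and the 5' end of the transcript, which were left out of the tests. The sources used here do not say whether they match Gapdh1 or Gapdh2. Over the 24 arrays they spanned 13.15 to 13.49 at the 3' end, 12.12 to 12.62 in the middle and 11.42 to 11.77 at the 5' end. Heat selected lines minus the mean of the 6 other regimes gave 0.03, 0.18 and 0.09 for these 3 probe sets, below the 0.25 of the Gapdh1 probe set. Their r with Gapdh1 over the 24 arrays was -0.12, 0.45 and 0.56.

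Facts of the whole series bear on all these values. Array medians lay between 5.46 and 5.57, and arrays correlated at 0.986 to 0.995 within groups and 0.978 to 0.996 between groups over the tested probe sets. The residual SD had a median of 0.12 over the tested probe sets and, among the members, ran from 0.07 for Pgi to 0.15 for Pfk. With 3 lines per group the standard error of a change against control was 0.06 to 0.12 for the members.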

How the data were processed

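The authors deposited log2 expression values, 1 per probe set and array, which were made with GCRMA (background correction, normalization and summary of probes), per the submitters' processing notes. The sources used here give neither its version nor its settings. The values ran from -0.18 to 14.95 over 14010 probe sets, and nothing was added to their normalization.

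After 44 control probe sets were set aside, 9023 of the other 13966 passed the filter (log2 above 4 on at least 3 arrays). Symbols came from the platform annotation, updated by gene identifier through a RefSeq gene table that was used for names only. Of the 13966 probe sets 12442 named 1 gene, 327 several and 1197 none. Limma 3.58.1 in R 4.3.3 (lmFit, eBayes) fitted 1 mean per group to all 24 arrays, with 16 residual and 3.56 prior degrees of freedom. Limma p-values were two-sided and adjusted over the 9023 probe sets of each comparison by the Benjamini-Hochberg method, and "called" stands for an adjusted p under 0.05. Intervals are 95% intervals of that fit. The fit was also tested on simulated data. Arrays have no depth, and 3 lines per group limit the precision.

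The members, gene lists and tests were chosen with earlier results of these data known. All 7 members are named. Of each list of other pathway genes, those called against control and the 3 with the lowest p over the 7 comparisons against control are named. Where a listed gene had more than 1 tested probe set, the brightest on average stood for it. Pglym78 was named after its values were seen. Likeness was Pearson r over the 24 arrays. Alternatives changed the filter (none, or log2 above 6), the normalization (quantile, or median centring), the arrays in the fit, array weights, a replicate block, an RNA quality covariate, the family of adjusted p-values and, in turn, the array left out. Python 3.11.15 with SciPy 1.17.1 and matplotlib 3.10.9 made the permutation tests (100000 permutations over all 24 arrays, two-sided) and the figures.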

Additional observations from a re-analysis of the deposited data

Results flagged for a closer look

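In 7 genes the effect of heat selection differed from the mean effect of the 6 other regimes, by the limma test of that difference. That test called 11.1% of all tested probe sets. Without heat selected replicate 2, or with the RNA quality covariate, it called none of the 7 genes. The control arrays cancel in the difference but enter the residual spread, and in a fit without them Gapdh1, Pgk, Gpdh1 and Gk2 were not called. Among the enzymes listed at the start, the difference was 0.33 for Pfk, 0.25 for Gapdh1, 0.25 for Pgk and -0.22 for Gpdh1 on the log2 scale. Among the other genes of sugar metabolism it was 0.45 for Ald1, 0.34 for Pglym78 and -0.24 for Gk2. No test for single lines that stand apart was run within groups, since each holds 3 lines. Single lines were only described or left out in turn.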

How the results depend on the processing

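Against control, no member was called in any of the 7 comparisons under any alternative, except that median centring called 1 member in heat selected females (Gpdh1, -0.35, adjusted p = 0.0386). Of 66 member changes not called in the 10 comparisons, 25 changed sign under some alternative. Hex-A reversed with the RNA quality covariate, to 0.080 in heat selected females against control and 0.063 against the 6 other regimes. In heat selected females against the 6 other regimes, where 4 members were called, 2 were called after quantile normalization, 2 after median centring, 2 with array weights, 1 in a fit of the compared groups alone and 0 with the RNA quality covariate. Leaving out each array gave 0 to 4. Pgi was at -0.015 after median centring and ran from -0.016 to 0.071 over the arrays left out. Over the arrays left out, the median of the members ran from -0.061 to 0.093 in cold selected females, lowest without cold selected replicate 3, and from -0.11 to -0.016 in knock-down selected females, lowest without knock-down selected replicate 2, each against control.

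Over all probe sets, the 998 calls of heat selected females against the 6 other regimes became 2793 without the filter, 595 with array weights, 649 without heat selected replicate 1, and 2 without heat selected replicate 2 or with the RNA quality covariate. The values do not settle whether replicate numbers pair the lines. Same-numbered lines of a regime and control deviated together (r over 0.1) in 10 of 21 pairs, with r from -0.16 to 0.26. Of the 21 lines, 9 correlated best with the control line of their own number. With the replicate block 3 members were called against the 6 other regimes (Gpdh1 at -0.22, adjusted p = 0.0550) with 1239 probe sets, and 0 members elsewhere. In heat selected females against control the block gave 410 called probe sets, against 256 without it. A mean over a member's probe sets was not run, since each has 1. The cause of these changes was not tested. Precision is limited by 3 arrays per group.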
